A study of Mus musculus with 9 samples.

Results

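Ulcer skin of diabetic rats that had received platelet-rich plasma (PRP, the platelet-concentrated fraction of blood plasma) was compared with ulcer skin of non-diabetic rats, and the question was what still differed after treatment. RNA had been sequenced from 9 samples, 3 in each of 3 groups, and 6 of them enter the comparison. The non-diabetic group had ulcers and received saline. The PRP group had diabetic ulcers and received 0.5 ml of PRP at the wound on days 1, 7, 14 and 21. The remaining group had diabetic ulcers injected with the same volume of saline. It adds to the gene filter and to the estimate of spread, and its levels are given only as values beside the comparison. All tissue was taken on day 21, which was also the last injection day, so every wound had been injected, with PRP or with saline. No non-diabetic ulcer received PRP, so PRP and diabetes cannot be told apart in the difference between these 2 groups. The rat strain, age and the way diabetes was induced are not given in the sources used here. The Y-linked genes Eif2s3y and Kdm5d were at 35.6 to 57.7 and at 7.23 to 10.3 FPKM over the 9 libraries. FPKM, the authors' measure of a gene's level, counts the fragments mapped to a gene relative to its length and to the library's total. Of 28370 features, the 15600 with at least 0.5 FPKM in 3 or more of the 9 libraries were tested, and differences are given on the scale log2(FPKM + 1), which understates the change of genes with low FPKM.

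A skin wound is first filled by blood clot and inflammatory cells, then by granulation tissue made of fibroblasts, new vessels and collagen, while keratinocytes move in from the edge and cover it. In diabetes this sequence is slow and often incomplete, with poor vessel growth and inflammation that does not resolve. Platelets carry growth factors such as PDGF, TGF-beta and VEGF in their granules, and PRP is injected to bring them to the wound. The samples are whole tissue, in which fewer cells of a type and less RNA per cell cannot be told apart.

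The 3 non-diabetic libraries were not alike. An epithelial score was taken as the mean log2(FPKM + 1) of 46 genes of keratinocytes and hair follicles. It stood at 3.57, 5.71 and 1.42 in non-diabetic replicates 1, 2 and 3, against 6.11, 5.76 and 4.93 in the PRP libraries and 4.71, 6.94 and 6.68 in the saline-treated diabetic libraries. Non-diabetic replicate 2 thus lay within the PRP range and replicates 1 and 3 below all 6 diabetic libraries. On the first principal component (56.6% of the variance) the non-diabetic libraries lay at -67.9, -1.9 and -94.9 and the PRP libraries at 32.5, 12.2 and -10.3. The 10 most abundant features took 48.8%, 49.2% and 52.7% of the FPKM in the PRP libraries and 40.8%, 41.7% and 41.1% in the non-diabetic ones. Depth relative to the mean, read from 109 lncRNA genes with deposited counts, ran from 0.836 to 1.112. Values in sentences below follow replicates 1, 2 and 3.

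With 3 libraries a group and the spread taken from all 9 (limma-trend, Benjamini-Hochberg adjustment over all tested genes), 1 gene passed an adjusted p of 0.05, which is 0.00641% of 15600. At an unadjusted p under 0.05 there were 3182 genes (20.4%), of which 1179 were higher (7.56% of all tested) and 2003 lower (12.8%) in PRP-treated diabetic ulcers. With size factors on the FPKM that split was even, at 1545 higher and 1483 lower, against the 1179 and 2003 without them. The 3 PRP and 3 non-diabetic libraries did not overlap for 4580 genes (29.4%), with PRP higher for 1391 (8.92%) and lower for 3189 (20.4%). Over all tested genes the median difference was -0.038 and 45.8% of genes were higher with PRP. Large differences leaned the other way, with 207 genes higher and 22 lower by a log2 difference of 2 or more. The median standard error (SE) of a gene's difference was 0.217. Leaving out 1 library changed the count of genes that passed. It became 0 when non-diabetic replicate 1, non-diabetic replicate 3 or PRP replicate 2 was dropped. Without non-diabetic replicate 2, the one with the high epithelial score, 714 genes passed, 348 higher and 366 lower. It was 2 without PRP replicate 1 or 3, and 21 and 5 when saline-treated diabetic replicate 1 or 2, which add only to the estimate of spread, was left out.

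**Figure D1:**
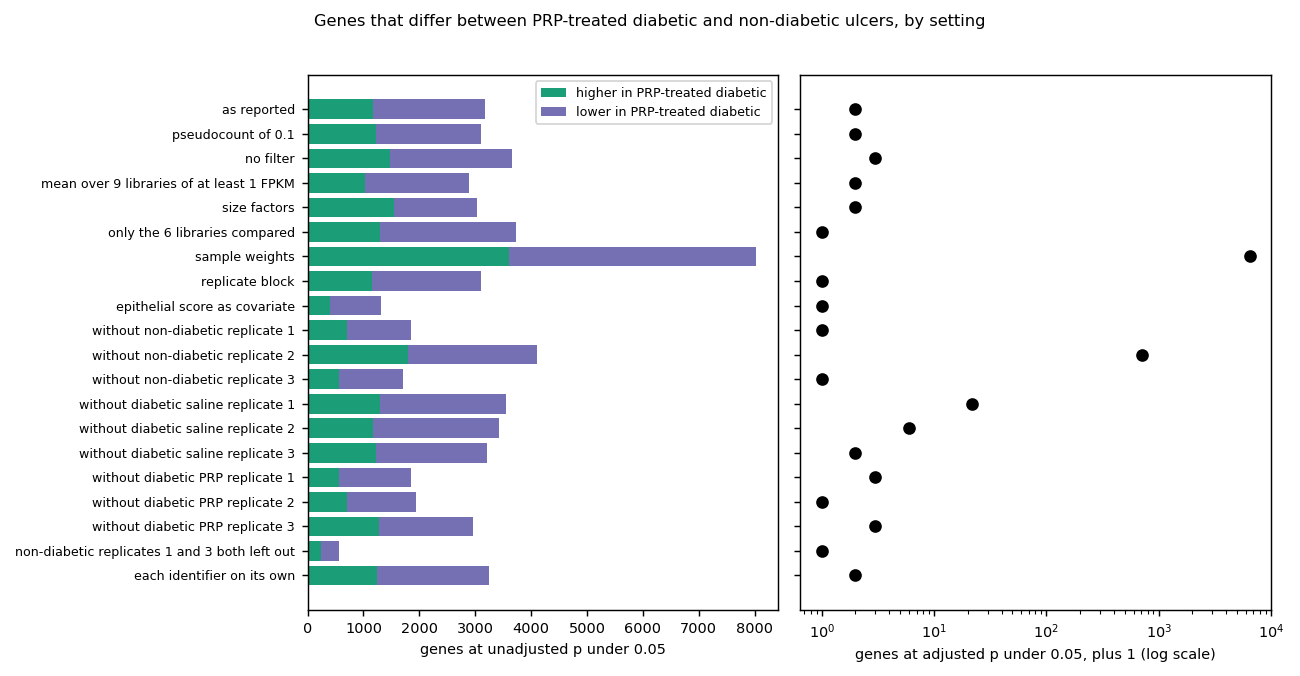
Genes that differ between PRP-treated diabetic and non-diabetic ulcers under each setting of the analysis. Bars on the left count genes at an unadjusted p under 0.05, split by direction (3182 as reported), and points on the right count genes at an adjusted p under 0.05, plus 1, on a log scale (1 gene as reported, 714 without non-diabetic replicate 2, 6474 with sample weights).

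The gene that passed was a small nucleolar RNA gene listed as AC105648.6 (ENSRNOG00000055845, chromosome 8, 12163042 to 12163111), 70 bases long, in the interval of the protein-coding gene Cep295. Small nucleolar RNAs guide chemical modification of other RNAs. It falls outside the naming rule for genes and is named because it was the only call. It was at 0.415, 0.582 and 0.703 FPKM in the non-diabetic, 1.19, 0.997 and 1.92 FPKM in the saline-treated diabetic and 9.95, 7.92 and 6.81 FPKM in the PRP libraries. The 3 PRP libraries lay above all 6 others. Its level rose by a log2 difference of 2.55 over non-diabetic ulcers (SE 0.20, adjusted p = 0.00986), and its difference from saline-treated diabetic ulcers was 1.97 (adjusted p = 0.0805). The call was lost without non-diabetic replicate 1 (adjusted p = 0.114), non-diabetic replicate 3 (0.0617) or PRP replicate 2 (0.107). It was also lost in a fit of the 6 libraries alone (0.0572), with the replicate number as a block (0.0864), with the epithelial score as a term in the fit (0.107) and after non-diabetic replicates 1 and 3 were dropped together (0.622). The difference stayed between 2.42 and 2.66 with each library left out in turn. FPKM divides by gene length, so few fragments give a high value for a gene of 70 bases. Cep295, a centriole gene, was at 4.17, 3.93 and 3.85 FPKM in the non-diabetic and 6.70, 4.09 and 4.44 FPKM in the PRP libraries, and these groups overlapped.

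Against the same non-diabetic libraries, saline-treated diabetic ulcers had 1396 genes past an adjusted p of 0.05 (8.95%), 279 higher (1.79%) and 1117 lower (7.16%). PRP and saline-treated diabetic ulcers did not differ at that threshold for any gene in limma, where 1021 genes (6.54%) had an unadjusted p under 0.05, 621 higher (3.98%) and 400 lower (2.56%) with PRP. These comparisons share libraries with each other and are not independent. The passing of more genes in one of them does not show that the groups differ in how far they lie from non-diabetic ulcers. Taken over all 9 libraries, the non-diabetic libraries lay above all 6 diabetic ones for 1935 genes (12.4%) and below all 6 for 766 (4.91%). The PRP libraries lay above all others for 67 genes (0.43%) and below all others for 183 (1.17%). For the saline-treated diabetic libraries these counts were 439 (2.81%) and 657 (4.21%).

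None of the protein-coding genes passed, so those described first are the 12 named genes with the smallest unadjusted p in each direction, with no overlap between the groups and at least 1 FPKM on average in the group where the gene is higher. Their values are given as measured, and none is called a change. The 12 lower genes include receptors and secreted proteins of blood cells, matrix and surface proteoglycans, and signalling proteins.

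Among the immune genes, Ccr2, the receptor through which monocytes follow the chemokine Ccl2, was at 29.8, 22.7 and 26.8 FPKM in the non-diabetic and 6.78, 5.50 and 6.83 FPKM in the PRP libraries. Every PRP library lay below every non-diabetic one, as the choice of genes required (log2 difference -1.89, SE 0.28, adjusted p = 0.143). Saline-treated diabetic ulcers had 4.36, 1.41 and 3.23 FPKM, below every PRP library. Properdin (Cfp), which stabilises the convertase of the alternative complement pathway, was at 36.9, 34.4 and 33.6 FPKM in non-diabetic and 8.83, 5.67 and 8.97 FPKM in PRP-treated ulcers (-2.05, SE 0.31, adjusted p = 0.143). Its saline values, 9.83, 3.90 and 4.12 FPKM, spanned those of PRP. Cd22, an inhibitory sialic acid-binding receptor of B cells, was at 4.24, 3.18 and 3.75 and 0.920, 0.888 and 1.04 FPKM in the non-diabetic and PRP libraries (-1.27). The PRP values lay close together, within the saline range of 1.13, 0.392 and 0.522 FPKM.

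Of the signalling and surface genes, Steap1, of a family of metal-reducing membrane proteins, was at 14.1, 13.9 and 17.04 FPKM in the non-diabetic and 4.07, 3.55 and 4.70 FPKM in the PRP libraries (-1.65, SE 0.19, adjusted p = 0.0659). It had the smallest p among lower genes, and its saline values of 5.56, 3.38 and 4.48 FPKM spanned those of PRP. Scg2, the precursor of the peptide secretoneurin, was at 3.40, 4.03 and 2.96 FPKM in non-diabetic, 0.871, 0.264 and 1.27 FPKM in saline-treated and 0.135, 0.223 and 0.478 FPKM in PRP-treated ulcers (-1.80, adjusted p = 0.128). Its PRP and saline values overlapped, all far below the non-diabetic ones. The Src-family kinase gene Fyn was at 36.6, 30.3 and 46.2 FPKM in non-diabetic and 14.1, 17.03 and 18.3 FPKM in PRP-treated ulcers (-1.13), and the scaffold gene Sash1 at 32.8, 30.9 and 29.3 and 14.7, 16.9 and 18.4 FPKM (-0.86). For both genes every PRP library lay below every non-diabetic one, as the choice of genes required, and Sash1 varied less within the non-diabetic group than Fyn.

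Of the matrix genes in this group, fibromodulin (Fmod), a proteoglycan that binds collagen fibrils, was at 9.53, 10.6 and 9.30 FPKM in non-diabetic and 3.04, 3.97 and 5.28 FPKM in PRP-treated ulcers (-1.10, SE 0.18, adjusted p = 0.143). Syndecan-3 (Sdc3), a heparan sulfate proteoglycan of the cell surface, was at 7.74, 6.02 and 8.34 and 1.91, 2.31 and 3.31 FPKM (-1.26), and the secreted protease gene Adamts19 at 1.84, 1.98 and 2.55 and 0.584, 0.353 and 0.724 FPKM (-1.01). For all 3 the saline-treated libraries overlapped the PRP ones. Mesothelin (Msln), a surface glycoprotein, was at 5.76, 8.99 and 11.9 FPKM in non-diabetic and 0.284, 0.229 and 2.37 FPKM in PRP-treated ulcers (-2.45, SE 0.39, adjusted p = 0.143). PRP replicate 3 was the highest of the 6 diabetic libraries, and without it the difference was -2.93 (adjusted p = 0.0486). Leaving out the PRP library nearest the non-diabetic ones widens the difference by construction, so this is no evidence for a change. The homeobox gene Lhx8 was at 1.42, 1.76 and 2.17 FPKM in non-diabetic ulcers and at or under 0.510 FPKM in each PRP library (-1.23).

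The 12 higher genes include ion and solute carriers, lipid enzymes, serpins and keratinocyte genes. Npr3, which encodes the clearance receptor for natriuretic peptides, was at 1.53, 2.29 and 1.56 FPKM in the non-diabetic, 5.21, 7.34 and 4.37 FPKM in the saline-treated and 7.77, 8.57 and 9.51 FPKM in the PRP libraries. Each PRP library was above each saline library, and these above each non-diabetic one, with a log2 difference of 1.79 from non-diabetic ulcers (SE 0.20, adjusted p = 0.0659). Itgb8, an integrin subunit that takes part in activating latent TGF-beta, was at 3.48, 3.84 and 2.68 FPKM in non-diabetic and 8.81, 11.8 and 8.79 FPKM in PRP-treated ulcers (1.32, SE 0.21, adjusted p = 0.143). Its saline values, 6.53, 8.47 and 10.8 FPKM, overlapped those of PRP. Serpinb10, a serine protease inhibitor, was at 4.75, 6.78 and 1.66 FPKM in non-diabetic, 10.8, 8.39 and 17.3 FPKM in saline-treated and 17.9, 29.9 and 20.7 FPKM in PRP-treated ulcers (2.24). The PRP libraries were all above the saline ones, and the lowest non-diabetic value was that of replicate 3. Serpina12 (vaspin), an inhibitor of the epidermal protease kallikrein 7, was at 3.12, 2.13 and 0.526 FPKM in non-diabetic and 25.6, 18.04 and 13.8 FPKM in PRP-treated ulcers (2.86, SE 0.58, adjusted p = 0.154). Its saline values ran wider, from 9.97 to 51.2 FPKM.

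The keratinocyte proline-rich protein gene Kprp was at 1.42, 2.26 and 0.0165 FPKM in non-diabetic and 7.49, 10.4 and 6.62 FPKM in PRP-treated ulcers (2.17). Smpd3, a sphingomyelinase, was at 2.49, 2.22 and 1.33 and 4.66, 6.99 and 4.38 FPKM (1.07), and Ptgr1, which breaks down leukotriene B4 and prostaglandins, at 3.80, 3.45 and 2.15 and 9.79, 14.05 and 7.60 FPKM (1.46). In these 3 genes non-diabetic replicate 3, the library with the lowest epithelial score, held the lowest value. Among carriers and pumps, the phosphate carrier gene Slc34a2 was at 0.545, 0.351 and 0.0369 and 3.74, 6.28 and 1.92 FPKM (1.85), and the proton pump subunit gene Atp6v1d at 27.7, 32.4 and 22.3 and 47.2, 70.4 and 66.8 FPKM (1.13). The monocarboxylate carrier gene Slc16a13 (1.07), the potassium channel gene Kcng3 (0.97) and Elmod1 (1.95), which acts on Arf-family GTPases, completed the 12. Adjusted p-values of the 11 higher genes after Npr3 ran from 0.143 to 0.154. For all 24 genes the saline-treated diabetic libraries lay on the same side of the non-diabetic ones with no overlap. The genes were picked against these same non-diabetic libraries, with a spread that includes the saline ones, so this likeness is partly built in. Over all tested genes the non-diabetic libraries lay above all 6 diabetic ones for 12.4% and below them for 4.91%.

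**Figure D2:**
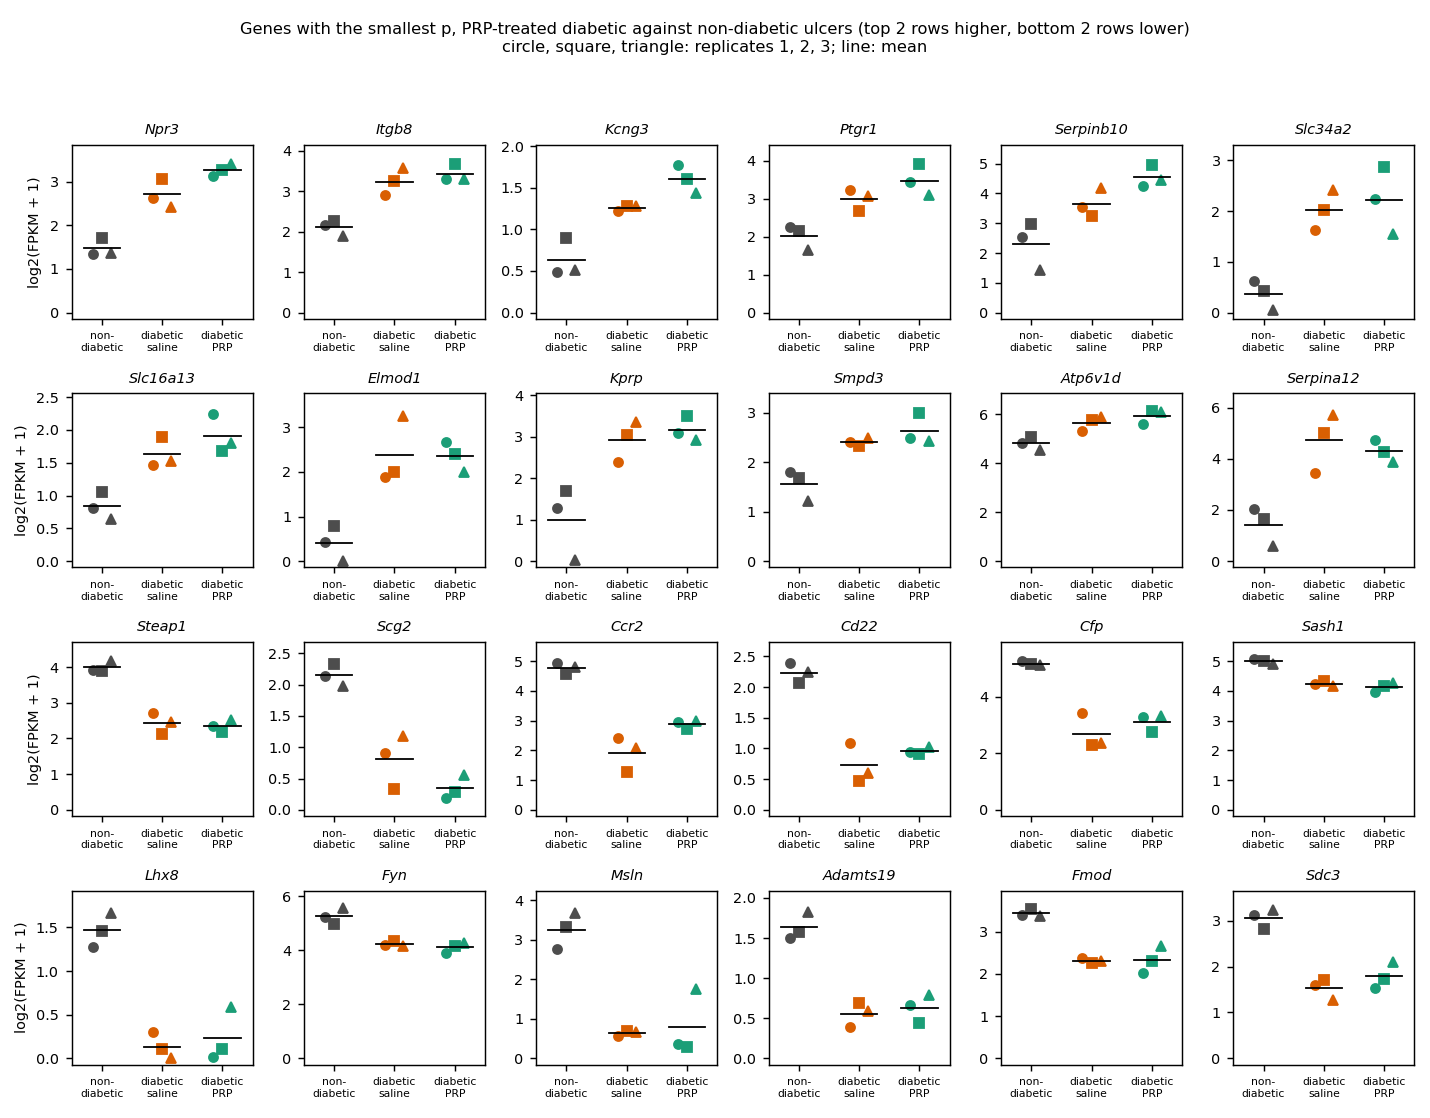
Levels of the 24 named genes in the 9 libraries as log2(FPKM + 1), with 1 panel per gene, replicates 1, 2 and 3 as circle, square and triangle, and the group mean as a line. In each panel the PRP and non-diabetic libraries do not overlap, which the choice of genes required. The saline-treated diabetic libraries lie on the PRP side of the same non-diabetic ones, which is partly built in.

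Gene lists for wound cell types and pathways were described by their counts and medians, beside 7.56% of all tested genes higher and 12.8% lower at an unadjusted p under 0.05, 8.92% higher and 20.4% lower without overlap, and a median difference of -0.038. No member of any list passed the adjusted threshold. From each list the 4 members with the highest mean FPKM over the 9 libraries were named by rule, and members named beyond these were chosen after their values were seen. With each library left out in turn, 29 of 47 list medians moved by over 1.5 times at least once, 26 of them with a non-diabetic library left out, and 7 turned sign. Both counts include the myofibroblast and smooth muscle list, whose median of 0 had no sign to turn. Medians near 0, such as -0.02 for insulin signalling and glucose handling, pass 1.5 times with small shifts.

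The fibrillar collagens, the most abundant matrix genes of the tissue, were not set apart from non-diabetic ulcers. Col1a1 was at 3000.4, 2647 and 2317 FPKM in the non-diabetic and 1533, 3230.5 and 4381 FPKM in the PRP libraries (0.08, SE 0.64, adjusted p = 0.958), and Col1a2, which encodes the other chain of type I collagen, differed by 0.13 (SE 0.64). PRP replicate 1 lay below the non-diabetic range and replicates 2 and 3 above it. Col3a1 was at 10976, 8975 and 7565 and 4449, 7042 and 11033 FPKM (-0.37, SE 0.67), and Sparc, a collagen-binding matricellular protein, at 3852, 3217 and 3568 and 1658, 2479.6 and 3689 FPKM (-0.51, SE 0.57). For both, PRP replicate 3 reached the non-diabetic range. The SE of these 4 genes leaves room for a difference, since a log2 difference of -1 lies within 2 SE of each of them.

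Of the 23 genes of the fibrillar collagen and matrix list, 4 lay below the non-diabetic libraries without overlap, a smaller share than the 20.4% of all tested genes. These included Fbn1 and Fn1. Fibrillin (Fbn1), the backbone of elastic microfibrils, was at 331, 327 and 276 FPKM in non-diabetic and 61.2, 57.5 and 149.9 FPKM in PRP-treated ulcers (-1.93, SE 0.49, adjusted p = 0.154). Fibronectin (Fn1), which forms the provisional matrix of wounds, was at 572, 399 and 598 and 106, 171 and 320.4 FPKM (-1.51, SE 0.48, adjusted p = 0.169). For both genes PRP replicate 3 was nearest to the non-diabetic level. In the list 19 genes were lower and 5 had an unadjusted p under 0.05, all lower, with a median difference of -0.60. In saline-treated diabetic ulcers the same list had a median of -1.66 from the same non-diabetic libraries. The PRP median depended on which PRP library was left out, at -0.32 without replicate 1 and -0.90 without replicate 3. It came to -0.18 with the epithelial score as a term in the fit and -0.33 when non-diabetic replicates 1 and 3 were dropped. All 14 collagen processing genes were lower (median -0.43), 2 of them at an unadjusted p under 0.05, and the prolyl hydroxylase subunit gene P4hb was at 419, 356 and 489 and 270.5, 304 and 376 FPKM.

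**Figure D3:**
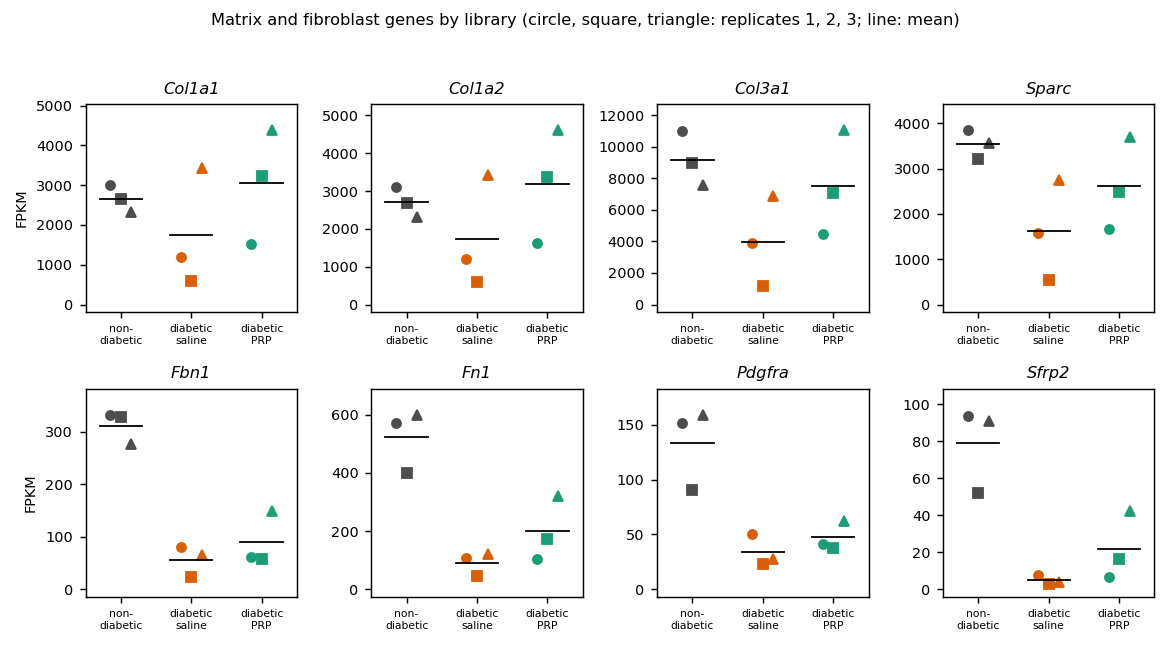
FPKM of 8 matrix and fibroblast genes in the 9 libraries, with replicates 1, 2 and 3 as circle, square and triangle and the group mean as a line. The PRP libraries overlap the non-diabetic ones for Col1a1, Col1a2, Col3a1 and Sparc and lie below them for Fbn1, Fn1, Pdgfra and Sfrp2.

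Fibroblast genes were lower as a group. Of 16 tested, 14 were lower, 10 had an unadjusted p under 0.05 and 11 lay below the non-diabetic libraries without overlap, with a median of -1.04. The most abundant, S100a4, was at 964, 925 and 904 FPKM in non-diabetic and 598, 298 and 628 FPKM in PRP-treated ulcers (-0.95, SE 0.39). The next, Dpt and Mfap4, which encode matrix proteins made by fibroblasts, differed by -0.93 and -0.31 and overlapped the non-diabetic libraries, whereas Fstl1 did not (-1.23). The PDGF receptor gene Pdgfra was at 152, 90.3 and 159 and 41.6, 38.1 and 62.6 FPKM (-1.47, SE 0.34, adjusted p = 0.154). The secreted Wnt modulator Sfrp2 was at 93.9, 52.2 and 91.1 FPKM in non-diabetic, 7.80, 3.02 and 3.95 FPKM in saline-treated and 6.73, 16.6 and 42.2 FPKM in PRP-treated ulcers (-2.10, SE 0.58). Within the PRP group replicate 3 was the highest, near the lowest non-diabetic value. The list median was -0.69 with the epithelial score as a covariate, with 4 genes then lower at an unadjusted p under 0.05. The list median in saline-treated diabetic ulcers was -1.55.

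Basement membrane genes split into lower and higher ones. Type IV collagen and the laminins of vessels and connective tissue were lower, with Col4a1 at 235, 169 and 296 FPKM in non-diabetic and 77.3, 93.6 and 128 FPKM in PRP-treated ulcers (-1.21, SE 0.28, adjusted p = 0.154). Col4a2 (-1.20), nidogen (-1.09), Lamb1 (-0.92), Lama4 (-1.39) and Lamc1 (-0.90) had the same sign without overlap. The epidermal anchoring genes were higher, with Col17a1, a hemidesmosome collagen, at 18.1, 46.6 and 3.68 and 86.2, 97.2 and 70.6 FPKM (2.39, SE 0.71). Col7a1, which forms the anchoring fibrils under the epidermis, was at 14.3, 10.6 and 6.70 FPKM in non-diabetic, 13.1, 11.8 and 13.98 FPKM in saline-treated and 18.03, 37.4 and 44.2 FPKM in PRP-treated ulcers (1.53, SE 0.35, adjusted p = 0.154). For Col7a1 each PRP library was above all 6 others, while saline-treated and non-diabetic libraries overlapped. Lamb3 (1.11) and Lama3 (0.68), chains of the laminin that attaches keratinocytes, were also above the non-diabetic range. In all, 4 of 12 members were higher and 6 lower at an unadjusted p under 0.05. The list median (-0.73) sums up 2 opposite sets and was -0.09 when non-diabetic replicates 1 and 3 were dropped.

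All 13 endothelial genes were lower, 9 at an unadjusted p under 0.05 and 11 without overlap (median -0.90). Pecam1, an adhesion molecule of vessel walls, was at 60.5, 47.1 and 82.7 FPKM in non-diabetic and 22.3, 26.3 and 41.8 FPKM in PRP-treated ulcers (-1.06, SE 0.37, adjusted p = 0.189). The receptor gene Tie1 was at 36.2, 26.6 and 41.8 and 12.5, 12.7 and 22.9 FPKM (-1.10), Egfl7 and Plvap differed by -1.06 and -0.90, and Kdr, the main VEGF receptor of vessels, was at 13.8, 10.04 and 17.7 and 6.80, 6.40 and 7.51 FPKM (-0.88). In the PRP group replicate 3 was the highest for each of Pecam1, Tie1 and Kdr. The PRP median differed little from that of saline-treated ulcers (-1.16), with a median of 0.08 between these 2 diabetic groups. With the epithelial covariate it was -0.46, with 1 gene lower at an unadjusted p under 0.05. Of 6 lymphatic endothelial genes tested, 2 were higher and 4 lower (median -0.28), with 2 higher and 2 lower at an unadjusted p under 0.05. In that list the podoplanin gene Pdpn was lower (-1.31) and the lymphatic chemokine gene Ccl21 higher (1.00).

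Macrophage genes were lower throughout the list. All 17 were lower, 7 at an unadjusted p under 0.05 and 11 without overlap, with a median of -0.96. Lysozyme (Lyz2), the most abundant, overlapped, at 1452, 810.0 and 1295 FPKM in non-diabetic and 1081, 414 and 857 FPKM in PRP-treated ulcers (-0.66, SE 0.60). Its saline values were lower still, at 479, 90.7 and 225 FPKM. The C1q chains did not overlap, with C1qb at 284, 265 and 255 and 121, 82.1 and 135 FPKM (-1.27, SE 0.48), and C1qa and C1qc at -0.97 and -0.91. Csf1r, the receptor that macrophages need to survive, was at 105, 81.7 and 91.6 and 39.1, 32.7 and 46.5 FPKM (-1.22, SE 0.40, adjusted p = 0.174). Cd14, a receptor for bacterial lipopolysaccharide, was at 55.8, 28.7 and 75.1 and 10.7, 15.00 and 13.6 FPKM (-1.85). Both had their lowest non-diabetic value in replicate 2 and still did not overlap. The median was -1.73 in saline-treated ulcers, and the median between PRP and saline was 0.83. It was -0.50 with the epithelial covariate and -0.55 with non-diabetic replicates 1 and 3 dropped.

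Of the repair macrophage list, 10 of 12 were lower (median -0.79), with Mrc1, the mannose receptor, at 87.8, 75.3 and 84.2 FPKM in non-diabetic and 34.6, 37.2 and 36.3 FPKM in PRP-treated ulcers (-1.17). Osteopontin (Spp1) went the other way, at 350.0, 20.5 and 16.8 and 447, 242 and 486 FPKM (2.87, SE 1.28, adjusted p = 0.249). Its groups overlapped through non-diabetic replicate 1, while replicates 2 and 3 were far below every PRP library. Apoe and Gpnmb, genes of lipid handling and of lysosomes, overlapped between the groups (-0.66 and -0.20). Of 16 complement genes 15 were lower, 11 without overlap and 4 at an unadjusted p under 0.05 (median -0.86, against -1.38 in saline-treated ulcers). The protease gene C1s was at 323, 303 and 301 and 192, 135 and 245 FPKM (-0.73). With the epithelial covariate the medians were -0.42 for repair macrophage and -0.52 for complement genes.

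Cytokine and chemokine genes were lower as well, with 23 of 27 lower, 9 at an unadjusted p under 0.05 and 8 without overlap (median -0.84). Cxcl12, which guides stem cells and leukocytes, was at 232, 226 and 183 FPKM in non-diabetic and 107, 74.6 and 78.9 FPKM in PRP-treated ulcers (-1.30, SE 0.43, adjusted p = 0.175). Ccl2, the ligand of Ccr2, was at 123, 79.3 and 221 FPKM in non-diabetic, 39.4, 5.24 and 5.72 FPKM in saline-treated and 55.8, 23.3 and 30.8 FPKM in PRP-treated ulcers (-1.88, SE 0.72). Ligand and receptor were thus both below the non-diabetic range with PRP. The neutrophil chemokine gene Cxcl2 was at 28.6, 5.04 and 207 and 2.82, 108 and 0.836 FPKM, with PRP replicate 2 and non-diabetic replicate 3 far above the rest (-1.87, SE 1.62). Cxcl14, a chemokine of normal epidermis, was higher, at 16.4, 36.1 and 8.25 and 40.6, 62.4 and 41.96 FPKM (1.42). The same 2 libraries, with non-diabetic replicate 1, held most of the interleukin gene Il1b, at 36.7, 3.77 and 178 and 4.74, 80.9 and 2.61 FPKM (-1.41, SE 1.42). The neutrophil list had a median of -1.15 with 1 of 9 at an unadjusted p under 0.05. When non-diabetic replicates 1 and 3 were dropped, the medians were 0.07 for cytokines, 0.11 for neutrophil genes and 0.05 for the pro-inflammatory macrophage list, against -0.88 in all libraries.

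B and plasma cell genes had a median of -0.25 with 0 of 8 at an unadjusted p under 0.05, and T and NK cell genes a median of -0.28 with 1 of 11 higher and 1 lower at that level. The T and NK median turned to 0.05 without non-diabetic replicate 3 and was -0.56 without replicate 2. With the epithelial covariate the medians were 0.05 for B and plasma cell and 0.21 for T and NK cell genes, and with non-diabetic replicates 1 and 3 dropped 0.16 and 0.13. The immunoglobulin heavy chain gene Ighm was at 99.6, 32.7 and 84.8 FPKM in non-diabetic, 7.66, 2.15 and 7.38 FPKM in saline-treated and 12.6, 68.2 and 49.00 FPKM in PRP-treated ulcers (-0.87, SE 0.68). PRP replicates 2 and 3 lay in the non-diabetic range and replicate 1 below it. Of antigen presentation genes, the class II invariant chain gene Cd74 was at 564, 533 and 465 and 154, 170.1 and 298 FPKM (-1.38, SE 0.45). Cd207 (langerin), the marker of Langerhans cells of the epidermis, was higher, at 1.35, 6.98 and 0.372 and 10.6, 13.2 and 14.05 FPKM (2.20, SE 0.57). Of the 10 dendritic and Langerhans cell genes tested, 4 were higher and 6 lower (median -0.33). At an unadjusted p under 0.05, 2 were higher and 3 lower. The median was 0.12 with the epithelial covariate and 0.01 with non-diabetic replicates 1 and 3 dropped. Of mast cell genes 3 of 9 were higher at an unadjusted p under 0.05, with carboxypeptidase Cpa3 at 7.00, 9.39 and 6.80 and 18.9, 17.5 and 9.75 FPKM. The mast cell median was only 0.10, with 7 genes higher and 2 lower. The count at that p was 1 without PRP replicate 1, PRP replicate 2 or non-diabetic replicate 3.

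Immediate early genes, which are switched on within minutes of a stimulus, were lower in 19 of 21 cases. Of these 12 had an unadjusted p under 0.05 and 12 did not overlap (median -0.69), and the saline-treated median was nearly the same (-0.74). Junb, listed as a pseudogene in the table, was at 369, 283 and 491 FPKM in non-diabetic and 181, 214 and 101 FPKM in PRP-treated ulcers (-1.23, SE 0.32, adjusted p = 0.154). Fos was at 176, 100.3 and 157 and 55.5, 28.5 and 11.7 FPKM (-2.36, SE 0.78). Jund (-0.48) and Klf6 (-0.56) had smaller differences and did not overlap either. Socs3, a feedback inhibitor of cytokine signalling, was at 81.05, 28.8 and 209.6 and 7.62, 27.6 and 9.42 FPKM (-2.55). Its lowest non-diabetic value, in replicate 2, was only just above the highest PRP value. The list median was -0.33 with non-diabetic replicates 1 and 3 dropped and -0.35 with the epithelial covariate. Interferon response genes were lower in 15 of 16 cases, 9 without overlap (median -0.62), with the transcription factor gene Stat2 at 14.1, 12.2 and 12.9 and 7.23, 8.35 and 8.51 FPKM (-0.64).

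Epidermal genes were higher in PRP-treated ulcers. All 9 basal keratinocyte genes were higher, 7 at an unadjusted p under 0.05 (median 1.19), and all 12 cornified keratinocyte genes, 9 at that level (median 2.39). Krt5, a keratin of basal cells, was at 507, 1181 and 40.8 FPKM in non-diabetic and 1375, 2499 and 1492 FPKM in PRP-treated ulcers (2.56, SE 1.02, adjusted p = 0.218). Krt15 differed by 2.24 and the linker gene Dst by 0.16. Krt10, a keratin of differentiating cells, was at 487, 332 and 15.5 and 804, 1551 and 669.6 FPKM (2.76, SE 1.11), Krt1 differed by 3.05 and the desmosome gene Dsg1 by 2.35. For Krt5 and Krt10 the groups did not overlap, and non-diabetic replicate 3 was far below replicates 1 and 2. Without it the medians were 0.79 for basal and 1.34 for cornified keratinocyte genes, and with replicates 1 and 3 both dropped 0.47 and 1.22. The saline-treated medians were 1.03 and 2.63. Wound-edge keratinocyte genes had a median of 1.56 against -0.25 in saline-treated ulcers, with 1 of 9 at an unadjusted p under 0.05. Its leading member after Krt17, S100a9, which neutrophils also make, was at 956, 19.4 and 394 FPKM in non-diabetic and 104, 3566 and 585 FPKM in PRP-treated ulcers, led by PRP replicate 2. Without PRP replicate 2 the wound-edge median was 0.75. Leaving out non-diabetic replicate 1, 2 or 3 gave 1.96, 0.89 and 0.92, and the epithelial covariate 0.37.

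All 25 hair follicle genes were higher, none of them at an unadjusted p under 0.05 and none without overlap (median 2.46). The root sheath keratin gene Krt71 was at 72.98, 636 and 4.23 FPKM in non-diabetic and 896, 527 and 245 FPKM in PRP-treated ulcers (2.96, SE 1.62, adjusted p = 0.331), and Tchh and Krt31 differed by 3.06 and 3.09. Non-diabetic replicate 2 held as much as the PRP libraries, and replicates 1 and 3 held little. The sign of the median turned when replicates 1 and 3 were both left out (-0.90) and with the epithelial covariate (-0.65), which is itself built from these genes and the keratinocyte lists. It was 0.89 without replicate 3 and 4.07 without replicate 2, when 20 of the 25 genes had an unadjusted p under 0.05.

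Lipid synthesis and sebocyte genes were mostly higher, with 17 of 20 fatty acid synthesis, 17 of 19 cholesterol synthesis and 9 of 11 sebocyte genes. Of 20 fatty acid synthesis genes 12 were higher and 1 lower at an unadjusted p under 0.05 (median 1.06). At that p 10 of 19 cholesterol synthesis genes (median 0.87) and 8 of 11 sebocyte genes (median 1.41) were higher, and none lower. Higher without overlap were 6 fatty acid synthesis, 8 cholesterol synthesis and 3 sebocyte genes. Hmgcs1, an early enzyme of cholesterol synthesis, was at 29.01, 78.9 and 14.2 FPKM in non-diabetic and 169, 91.4 and 114 FPKM in PRP-treated ulcers (1.88, SE 0.54, adjusted p = 0.155), and Cyp51, a later one, differed by 1.31. Elovl4, which makes very long fatty acids for the skin barrier, was at 27.2, 150.0 and 2.22 and 471, 204 and 251 FPKM (3.60, SE 1.17), and Scd and Fasn differed by 2.42 and 1.91. The saline-treated medians were 1.22, 0.84 and 1.45 for the 3 lists. With non-diabetic replicates 1 and 3 dropped the PRP medians were 0.33, 0.32 and 0.38, and with the epithelial covariate 0.53, 0.34 and 0.73.

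Muscle and energy genes leaned higher. All 15 skeletal muscle genes were higher, 1 of them at an unadjusted p under 0.05 (median 1.53, against 2.55 in saline-treated ulcers). The fast myosin light chain gene Mylpf was at 69.00, 1293 and 800.5 FPKM in non-diabetic and 2184, 1840.0 and 1756 FPKM in PRP-treated ulcers (2.20, SE 0.97), where non-diabetic replicate 1 was far below all other libraries. Without that library the list median was 0.47, and that of the slow and stressed muscle list -0.08. With all libraries the slow and stressed muscle list had a median of 0.54 against 2.20 in saline-treated ulcers. Its leading gene Csrp3, which encodes a muscle LIM protein, was at 6.79, 29.03 and 35.1 FPKM in non-diabetic, 264, 434 and 221 FPKM in saline-treated and 342, 87.6 and 80.3 FPKM in PRP-treated ulcers (2.73, SE 0.70). Of 35 oxidative phosphorylation genes encoded in the nucleus 33 were higher and 10 had an unadjusted p under 0.05 (median 0.37), with the complex I gene Ndufa6 at 109.6, 183 and 137 and 286, 197 and 191 FPKM (0.65). The median of this list was 0.25 without non-diabetic replicate 1 or without PRP replicate 1, and 0.08 with non-diabetic replicates 1 and 3 dropped.

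**Figure D4:**
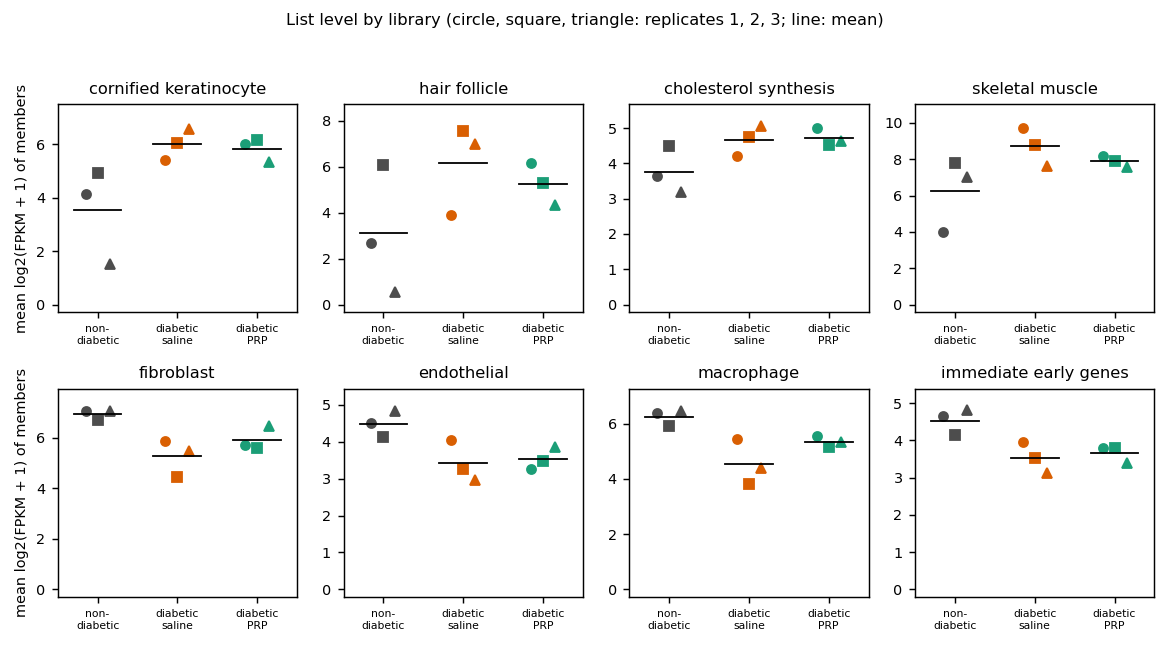
Level of 8 gene lists in each of the 9 libraries, as the mean log2(FPKM + 1) of the tested members, with replicates 1, 2 and 3 as circle, square and triangle and the group mean as a line. The fibroblast, endothelial, macrophage and immediate early lists lie lower in the PRP than in the non-diabetic libraries, while for hair follicle genes non-diabetic replicate 2 lies at the PRP level.

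Growth factor ligands, the kind of protein that PRP is meant to supply, were lower in 19 of 28 cases. Of these 28 genes 2 were higher and 7 lower at an unadjusted p under 0.05 (median -0.30), and of 20 receptor genes 3 were higher and 4 lower (median -0.16). Vegfa was at 22.2, 15.9 and 28.02 FPKM in non-diabetic and 13.4, 16.5 and 11.5 FPKM in PRP-treated ulcers (-0.62, SE 0.23), and Ccn1, a matricellular protein of wounds, at 149, 53.5 and 142 and 37.9, 23.7 and 26.9 FPKM (-1.81). Vegfa, through PRP replicate 2, and Ccn2 (-0.31) overlapped the non-diabetic libraries. Of the receptors, Tgfbr2, the TGF-beta receptor that binds ligand, was at 174, 154 and 146 and 67.9, 80.9 and 102 FPKM (-0.93, SE 0.35), and Pdgfrb and Tgfbr3 differed by -0.71 and -0.51. Of the 20 receptor genes 8 were higher, none of them without overlap. These included Fgfr2 (1.66), Fgfr3 (1.60) and Erbb2 (0.91), which overlapped the non-diabetic libraries through replicate 2. Platelet genes were little detected, with 3 of the 9 in the table tested. The platelet chemokine gene Pf4 was at 43.3, 46.4 and 44.9 FPKM in non-diabetic, 36.1, 4.31 and 12.4 FPKM in saline-treated and 36.01, 23.2 and 33.8 FPKM in PRP-treated ulcers (-0.54, SE 0.58), and all PRP libraries lay below all non-diabetic ones.

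Insulin signalling and glucose handling genes had a median of -0.02, with 0 of 18 higher and 2 lower at an unadjusted p under 0.05. These were the kinase genes Akt1, at 64.3, 58.3 and 78.7 FPKM in non-diabetic and 33.5, 48.7 and 51.5 FPKM in PRP-treated ulcers (-0.59), and Akt2, at 47.6, 51.3 and 60.3 and 38.6, 37.9 and 33.9 FPKM (-0.51). Txnip, which glucose induces, was at 154, 164 and 117 and 141, 116 and 90.8 FPKM (-0.33, SE 0.28) and overlapped. Cell proliferation genes had a median of 0.10 with 1 of 22 at an unadjusted p under 0.05, and Mki67 was at 7.40, 13.05 and 9.98 and 18.2, 14.2 and 9.49 FPKM. The unfolded protein response list (-0.04), the hypoxia and glycolysis list (0.16) and the circadian clock list (0.13) had medians nearer to that of all genes, with members on both sides. Of 21 hypoxia and glycolysis genes 4 were higher and 3 lower without overlap, and of 16 circadian clock genes 5 were higher and 4 lower. Without PRP replicate 2 the hypoxia and glycolysis median turned to -0.10, and without non-diabetic replicate 1 that of cell proliferation turned to -0.09. Of oxidative stress genes 1 of 20 was higher and 4 were lower at an unadjusted p under 0.05 (median -0.30), and Nfe2l2, which encodes the regulator NRF2, was at 19.2, 50.96 and 24.7 and 14.3, 13.3 and 12.8 FPKM (-1.05). Wnt genes split, with 8 of 23 higher and 2 lower at that level (median 0.30, and -0.12 with the epithelial covariate), the inhibitor gene Sfrp4 at 183, 214 and 230.2 and 76.5, 27.4 and 87.6 FPKM (-1.85) and the ligand gene Wnt16 at 4.46, 4.37 and 1.43 and 11.2, 16.9 and 28.9 FPKM (2.17).

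**Figure D5:**
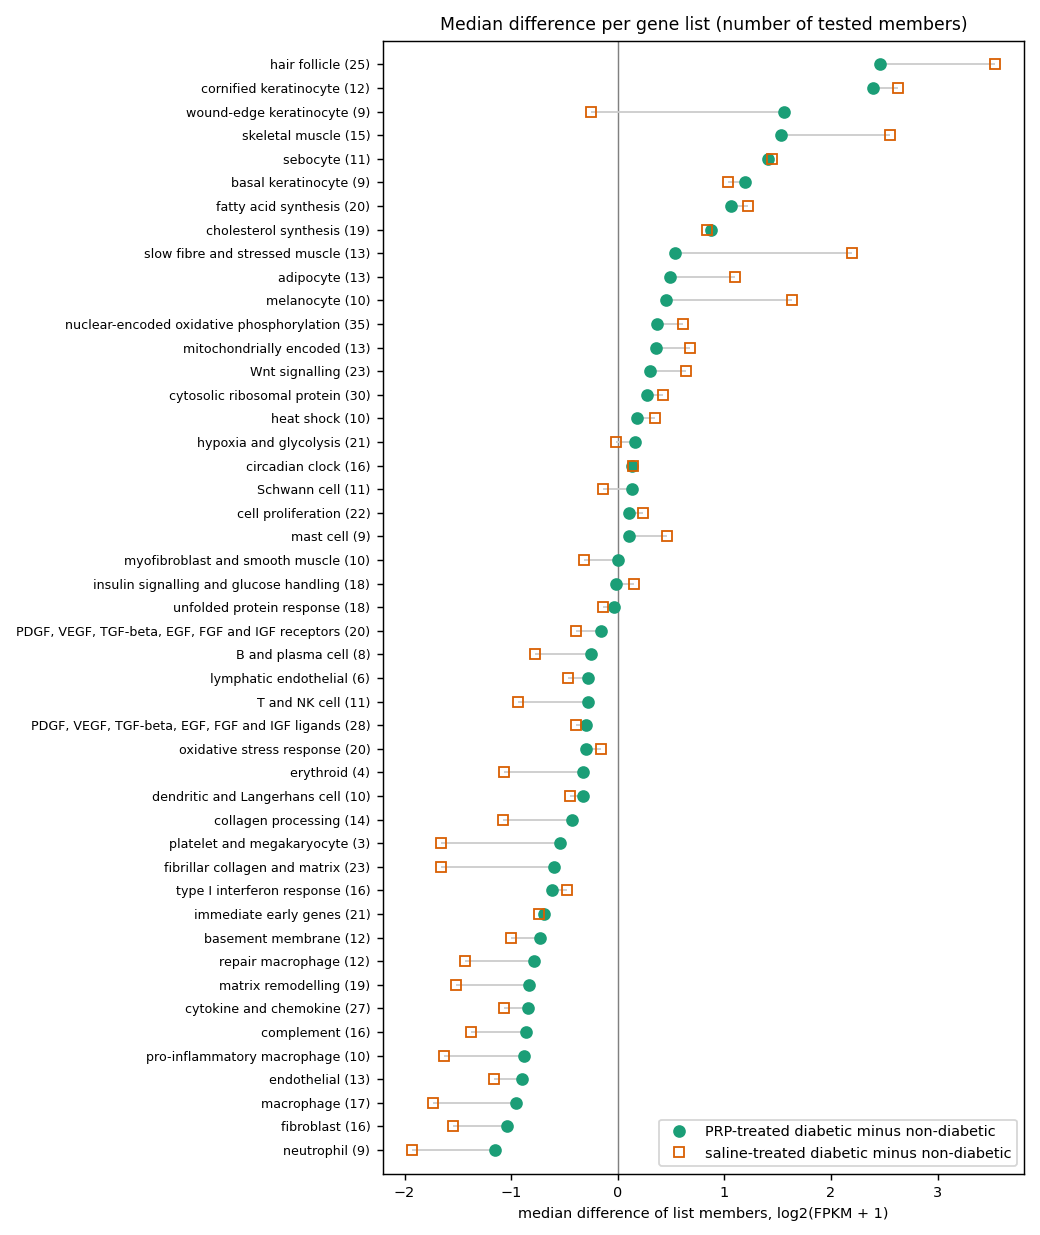
Median log2(FPKM + 1) difference of the tested members of each gene list from the same 3 non-diabetic libraries, for PRP-treated (filled circles) and saline-treated (open squares) diabetic ulcers. Both sets of values share the non-diabetic libraries, so their likeness is partly built in, and the PRP values run from -1.15 for neutrophil to 2.46 for hair follicle genes.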

How the data were processed

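Per the labels' protocols, RNA was extracted with an RNeasy Plus Mini Kit, and libraries came from the NEBNext Ultra II Directional kit. StringTie, HISAT2, cutadapt and FastQC appear in the submitters' processing notes, with no version. The labels name mouse and GRCm39, whereas the series design describes rats and all 30560 identifiers are rat Ensembl identifiers. No source used here names the rat build, and coordinates are printed as the table has them. The deposited gene table holds FPKM for 9 libraries, made by the authors. The authors' deposited raw read counts of 249 lncRNA genes served only for relative depth. Depth behind a single FPKM value is unknown, so no counting interval is given.

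FPKM of features with the same name were summed (30560 to 28370). Genes past the filter were fitted as log2(FPKM + 1) with limma-trend (limma 3.58.1, R 4.3.3) over the 3 groups, with two-sided contrasts and Benjamini-Hochberg adjustment. Of 15600 tested genes, 33 passed the filter only through non-diabetic and 6 only through PRP libraries. The fit was tested on simulated data with noise drawn separately for each gene and library. Such data lack the variation that many genes share between these libraries, so the test does not cover it. The labels number the samples as biological replicates, and p-values measure the spread between them. The comparison, the 48 gene lists and the naming rule (the 12 smallest p per direction, and the 4 members of highest mean FPKM per list, some of which are not reported here) were chosen with earlier results of these data known. Alternatives were other filters, a pseudocount of 0.1, size factors, the 6 libraries alone, sample weights, the replicate number or the epithelial score as a term, features kept by identifier, and libraries left out. A mouse reference was not used.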

Additional observations from a re-analysis of the deposited data

How the results depend on the processing

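The count of genes past an adjusted p of 0.05, 1 as reported, was 0 in a fit of just the 6 libraries, 0 with the epithelial covariate, 0 after dropping non-diabetic replicates 1 and 3, 2 with no filter (AC105648.6 and AC096311.2, the latter with a log2 difference of 0.31) and 6474 with sample weights, which rested on non-diabetic replicate 1 (weight 7.495) and PRP replicate 2 (2.959). Leaving out each library in turn gave 0 to 714. Genes at an unadjusted p under 0.05, 3182 as reported, numbered 8024 with sample weights, 1312 with the epithelial covariate, 556 after dropping non-diabetic replicates 1 and 3, and 1700 to 4106 with each library left out. The cause of these shifts was not tested. With 1 non-diabetic library left, that library is assumed to vary like the other groups. With the replicate block the count was 0, with 3097 genes at an unadjusted p under 0.05. Same-numbered libraries had correlations of their deviations from -0.407 to 0.351, within the range of differently numbered ones, -0.439 to 0.552. No pairing by number was seen in these values. They cannot show that same-numbered samples shared no batch, and this was not tested. Of 474 values of the named genes under these alternatives 409 kept their side of the threshold, 58 came to pass (24 with sample weights, 24 without non-diabetic replicate 2, 5 and 4 without saline-treated diabetic replicates 1 and 2, and 1 without PRP replicate 3), and 7 no longer passed; none turned its sign. Of list medians of at least 0.1 in size, those that turned sign with 1 library left out were slow and stressed muscle (-0.08) and cell proliferation (-0.09) without non-diabetic replicate 1, T and NK cell (0.05) and Schwann cell (-0.01) without non-diabetic replicate 3, and hypoxia and glycolysis (-0.10) without PRP replicate 2. The sign turned for 9 lists with the epithelial covariate, 11 with non-diabetic replicates 1 and 3 dropped, and 1 with sample weights. With 3 libraries a group and a median SE of 0.217, small differences of single genes are not detectable here.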

Other observations

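Some genes lay outside both other groups in the PRP libraries. Those named in this paragraph were chosen after their values were seen, and none of them passed the adjusted threshold. Of 15600 genes, 67 (0.43%) were above and 183 (1.17%) below all 6 other libraries. These shares were smaller than those of either other group. The saline-treated diabetic libraries lay above all others for 2.81% of genes and below for 4.21%, the non-diabetic ones for 12.4% and 4.91%. The pattern is thus not particular to PRP, and single genes that show it are given as values only. Mmp12, the elastase of macrophages, was at 203, 122 and 159.6 FPKM in the PRP libraries, at 71.8, 6.32 and 8.97 FPKM in the non-diabetic and at 73.6, 3.55 and 20.3 FPKM in the saline-treated diabetic ones (log2 difference from non-diabetic 3.19, SE 1.08, adjusted p = 0.18). It was 1 of 2 higher members of a matrix remodelling list in which 17 of 19 genes were lower (median -0.83), among them the gelatinase gene Mmp2 (-0.61), Mmp14 (-0.83) and Timp1 (-1.72). That median was -0.39 without non-diabetic replicate 3, -1.32 without replicate 2, -0.51 without PRP replicate 1, -0.22 with the epithelial covariate and -0.02, with 9 genes higher and 10 lower, when non-diabetic replicates 1 and 3 were dropped. Wfdc18, which encodes a small protein of the whey acidic protein family, was at 85.8, 425 and 94.6 FPKM with PRP and 49.2, 3.07 and 1.10 FPKM in non-diabetic ulcers, led by PRP replicate 2. Itgae, the integrin chain of lymphocytes that stay in epithelium, was at 4.02, 3.83 and 3.58 FPKM with PRP, 2.23, 1.83 and 1.67 FPKM in non-diabetic and 3.00, 1.88 and 2.18 FPKM in saline-treated ulcers (0.73, SE 0.16). Col8a2, a short-chain collagen, was at 10.6, 8.70 and 13.00 FPKM with PRP and 7.40, 5.84 and 4.60 FPKM in non-diabetic ulcers (0.77). Below both other groups, the metallothionein gene Mt2A was at 25.7, 22.2 and 11.6 FPKM with PRP, 33.8, 52.9 and 41.4 FPKM in non-diabetic and 31.4, 79.2 and 36.6 FPKM in saline-treated ulcers (-1.12, SE 0.39). Oxa1l, a gene for insertion of proteins into the inner mitochondrial membrane, was at 19.7, 19.3 and 20.5 FPKM with PRP and 27.9, 33.2 and 30.9 FPKM in non-diabetic ulcers (-0.60), with saline values between (26.2, 24.6 and 25.96 FPKM).

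Fam111a, a serine protease gene, was at 74.5, 64.4 and 133 FPKM in the non-diabetic, 1.35, 3.17 and 3.91 FPKM in the saline-treated diabetic and 50.9, 1.56 and 1.83 FPKM in the PRP libraries. PRP replicate 1 lay near the non-diabetic libraries and replicates 2 and 3 with the saline-treated ones. The gene was named outside the naming rule, with its values known. Its difference from non-diabetic ulcers was -3.59 (SE 1.02, adjusted p = 0.155) and did not pass. Without PRP replicate 1 it was -5.02 (adjusted p = 0.0361). That replicate is the PRP library nearest the non-diabetic ones, so dropping it widens the difference by construction and is no evidence for one.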
